A study of Mus musculus with 8 samples.

Results

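The genes described here are 48 genes of the cilium and the centrosome, followed in sorted mouse cochlear cells. They were the protein-coding genes whose symbol in the NCBIM37 annotation begins with Ift, Bbs, Cep, Nphp or Dync2 followed by the numbers those families carry, together with Kif3a, Kif3b, Kif3c, Mks1 and Tsga14 (renamed Cep41 in later annotations). Of 49 matching genes, 48 had at least 1 CPM (counts per 1000000 gene counts) in at least 2 of the 8 libraries, as did 14610 protein-coding genes in all. The gene left out was Bbs12, which reached 0.683 CPM at most. The lowest member kept was Cep55, and the other 47 passed 1 CPM in all 8 libraries. No axonemal dynein heavy chain was included, because this annotation spells those genes Dnahc and the rule asked for Dnah. Tsga14 was entered by name with its enrichment in these data already known, so its difference between the fractions is a description rather than independent evidence.

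A cilium grows from a mother centriole and is built by intraflagellar transport (IFT), in which IFT-B particles are carried towards the tip by kinesin-2 (Kif3a with Kif3b or Kif3c) and IFT-A particles are returned by cytoplasmic dynein-2 (Dync2h1, Dync2li1). The BBSome moves membrane proteins into and out of the cilium, the transition zone (with Nphp4, Mks1 and Cep290 among its proteins) gates its base, and most Cep proteins sit on centrioles or in the material around them. Cochlear supporting cells bear a primary cilium, whereas each hair cell grows a kinocilium beside its hair bundle, and the polarity of the bundle depends on it. Tsga14/Cep41 is a centrosomal and ciliary protein required for glutamylation of ciliary tubulin.

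The libraries came from mice carrying the Lfng-EGFP BAC transgene (B6;FVB-Tg(Lfng-EGFP)HM340Gsat/Mmucd), taken at postnatal day 1 (P1) or 6 (P6) without treatment. Cochlear cells were sorted without culture into GFP+ and GFP- fractions, giving 4 groups (P1 GFP+, P1 GFP-, P6 GFP+, P6 GFP-) of 2 libraries each, and every animal, including the source of the GFP- cells, carried the transgene. The transgene marks most supporting cell types but not inner pillar cells, only bright cells were collected as GFP+, and GFP- cells are the cells without fluorescence, so that cells of low fluorescence were in neither fraction. Per the study's methods the stria vascularis, Reissner's membrane and the lateral wall were taken off at P1 but only in part at P6, so age and dissection cannot be told apart. Nothing states that the 2 libraries of a group came from separate animals, so p-values measure the spread between these libraries, which may be technical, and in bulk RNA fewer cells of a type and less RNA per cell cannot be told apart. The comparisons ask how supporting cells differ from the other cochlear cells at each age and how each fraction changes over the first postnatal week.

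Gene counts ranged from 17769024 to 67695039 per library. The sort was checked against marker lists. Of 8 supporting cell markers, 7 were higher in GFP+ than in GFP- cells at both ages, with summed levels of 5908 to 9159 CPM against 505 to 669 CPM. The remaining marker, Slc1a3, was lower in GFP+ cells at P1 (157 and 157 CPM against 379 and 312 CPM) and had no call at P6. Lfng, with 2365 to 3755 CPM in the GFP+ libraries, is the gene whose transgene marked the cells for sorting, so its difference is no independent check. Of 12 hair cell markers, 9 were also higher in GFP+ cells at both ages, with summed levels of 476 to 912 CPM against 352 to 496 CPM, and Atoh1 was at 0 in 1 GFP- library. The GFP+ fraction is therefore called by its sort, and the share of hair cell RNA in the results on cilium genes was not tested. P6 GFP+ replicate 1 stood apart from replicate 2. Its levels relative to replicate 2 went from a median log2 ratio of 0.41 for protein-coding genes of 1000 or fewer exon bases to -0.58 for those over 10000, while in the other 3 groups the rank correlation of that ratio with exon length lay between -0.18 and 0.15 over 11964 genes (in P6 GFP+, -0.52). An amplification of cDNA before library construction was used below a cell number that, per the study's methods, libraries of freshly dissected cochleas exceeded. P6 GFP+ replicate 2 in turn held more RNA of Schwann cell markers (2366 against 1114 CPM), of endothelial markers (214 against 53.9 CPM) and of mesenchyme, fibrocyte and cartilage markers (11382 against 6419 CPM). The part of these differences in the results below was not tested. Calls of the members that rest on the P6 GFP+ libraries are given with and without each of them. For the wider list, genes with values at P6 or with age in GFP+ cells are given with a range over fits without 1 library.

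The sequence before Tsga14 is shown because this gene dominated the set. The 300 bases around its start (250 before, 50 from the start on, chr6:30693700-30693999, minus strand, GRCm38.p6, RefSeq, printed 5′ to 3′) hold an X-box, the inverted repeat that RFX transcription factors bind in many cilium gene promoters, here in capitals.
Tsga14 (Cep41) promoter: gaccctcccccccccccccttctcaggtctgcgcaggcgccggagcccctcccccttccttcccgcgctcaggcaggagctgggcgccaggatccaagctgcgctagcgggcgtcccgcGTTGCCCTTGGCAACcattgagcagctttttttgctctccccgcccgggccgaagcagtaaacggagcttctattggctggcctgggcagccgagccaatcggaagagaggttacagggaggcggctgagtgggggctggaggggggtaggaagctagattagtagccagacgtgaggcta
The match runs from base -131 to base -117 relative to the start, and both of its strands match. Of the 38 members with an entry in the RefSeq promoter table, 3 (7.89%) held an X-box on either strand with up to 3 bases between its half-sites, against 302 of 17492 protein-coding genes (1.73%). The other members with a match were Ift57, an IFT-B subunit, with 2 (from -87 to -74 and from -60 to -48), and Bbs1, a BBSome subunit, with 1 that began at the base after the start (from 1 to 14). Their matches are printed with 15 bases on each side so that the repeats can be compared.
Ift57 first match (chr16:49699192-49699235, plus strand): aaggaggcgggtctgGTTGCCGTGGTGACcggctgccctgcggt
Ift57 second match (chr16:49699219-49699261, plus strand): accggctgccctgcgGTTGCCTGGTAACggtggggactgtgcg
Bbs1 match (chr19:4906598-4906641, minus strand): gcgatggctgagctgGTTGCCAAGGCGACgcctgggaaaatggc
Ift57 and Bbs1 share the repeat with Tsga14 but not its distribution, as their values below show. A match describes letters in this window and says nothing about binding. Tsga14 itself (ENSMUSG00000029790) lies at chr6:30603457-30643749 on the minus strand of NCBIM37, with 11 annotated transcripts, 6 of them coding, 4999 exon bases in all and no exon base shared with another gene. The study's in situ hybridization probe for it was made with primers that lie in a UTR exon and span 579 bases, and they are shown to place that probe on the gene.
Tsga14 forward primer (chr6:30604665-30604683, minus strand): gccggaattttgaatcggc
Tsga14 reverse primer (chr6:30604105-30604123, plus strand): gctatgtgtacgttggctg

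Most members had group means within 2-fold of each other over the 4 groups. The level and spread of all genes are not given beside them, so this describes the members only. As the mean over 8 libraries, Tsga14 reached 153 CPM per kilobase of exon, while the other 47 members ran from 1.07 (Cep55) to 28.6 (Ift20, the IFT-B subunit that also sits on the Golgi), with a median of 6.84. The highest and lowest group means lay within 2-fold of each other for 37 members and within 1.5-fold for 19, and the median fold was 1.65. The 11 members over 2-fold were Tsga14, Cep55, Cep170, Cep192, Cep152, Cep72, Cep250, Dync2h1, Cep110, Kif3c and Ift80. Members were long genes, with a median of 5494 exon bases (1012 to 16161) against 3729.5 for all protein-coding genes that passed the same filter. Exon bases were shared with another annotated gene in 8 members, most in Kif3c (17.1%), Cep250 (11.1%), Cep290 (9.69%) and Ift57 (7.86%). Whether strand was used in counting is not given in the sources used here, so these values are uncertain to that extent.

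**Figure D1:**
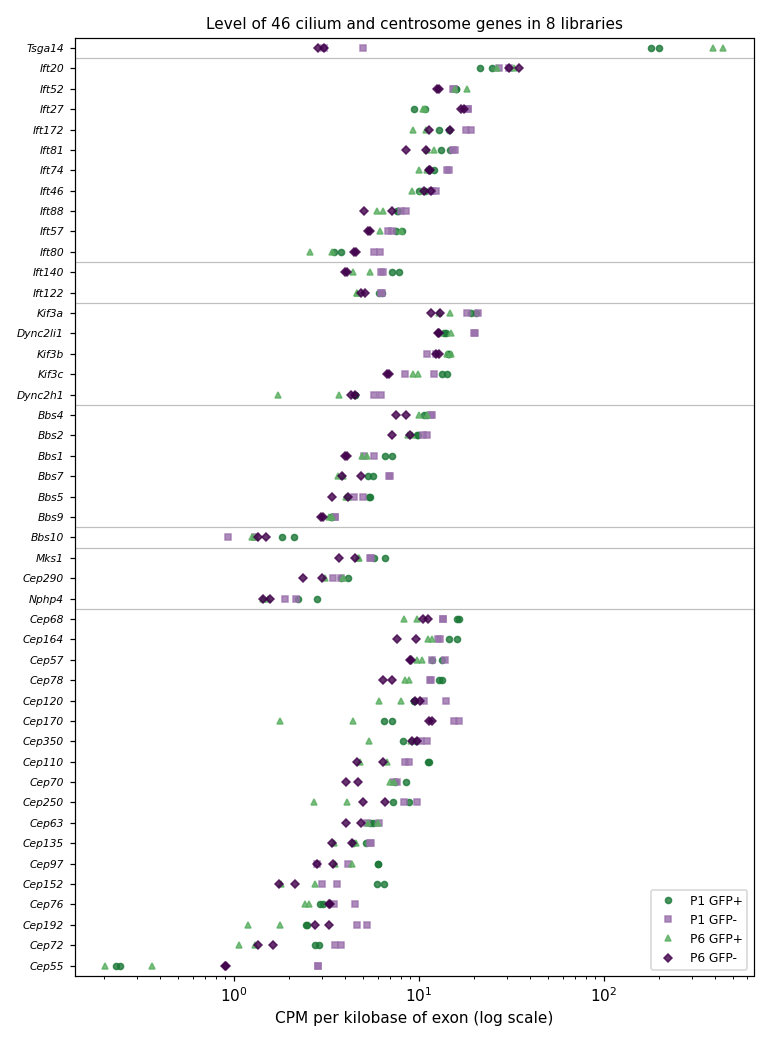
Level of 46 of the 48 genes in each of the 8 libraries, in CPM per kilobase of exon on a log axis, one point per library, grouped by role from Tsga14 at the top to the Cep genes at the bottom. Points of a gene lie close together for most members, and only Tsga14 and Cep55 show a wide gap between groups.

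Tsga14 was the one member whose level separated the fractions by orders of magnitude. It had 904 and 1002 CPM in the P1 GFP+ libraries and 15.4 and 25.02 CPM in the P1 GFP- libraries. At P6 it had 2202 and 1959 CPM in GFP+ cells and 15.4 and 14.3 CPM in GFP- cells. Every GFP+ library lay far above every GFP- library, the GFP- libraries of both ages lay between 14.3 and 25.02 CPM, and both P6 GFP+ libraries lay above both P1 GFP+ libraries. In GFP+ cells it ranked 70 and 77 among protein-coding genes at P1 and 22 and 24 at P6, against ranks from 7854 to 9259 in GFP- cells. This single gene supplied 29.8% and 31.9% of the summed CPM of the 48 members in P1 GFP+ cells and 59.5% and 53.7% in P6 GFP+ cells, against 0.677% to 1.09% in GFP- cells. The summed level of the other 47 members was 2130 and 2141 CPM in P1 GFP+ cells, 2264 and 2271 CPM in P1 GFP- cells, 1502 and 1689 CPM in P6 GFP+ cells and 1595 and 1787 CPM in P6 GFP- cells. These sums rest on library totals, and a direction between the fractions at P1 is not drawn from them, since the members' median log2 fold change at P1 was 0.03 with TMM scaling and -0.077 with library totals. At P6 the sums overlapped between the fractions.

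**Figure D2:**
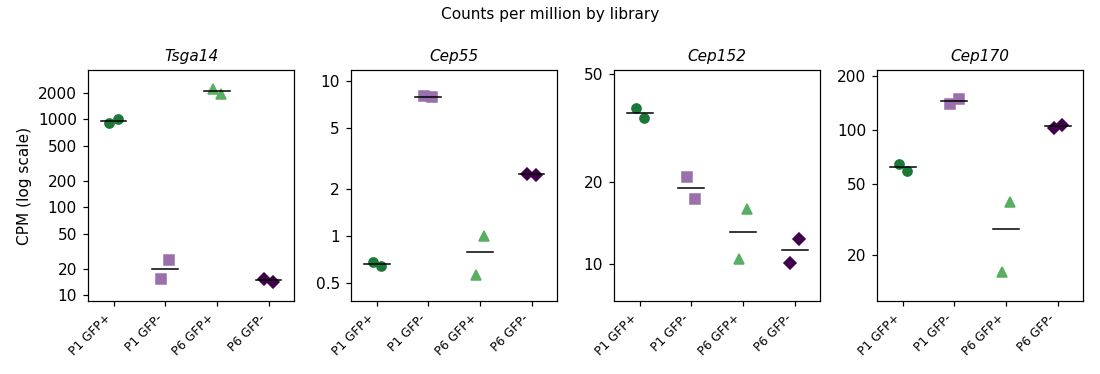
CPM of Tsga14, Cep55, Cep152 and Cep170 in each library on log axes, with a line at the mean of each group of 2 libraries. Tsga14 lies between 904 and 2202 CPM in the 4 GFP+ libraries and at 25.02 CPM or less in the 4 GFP- libraries, whereas Cep55 is lowest in the GFP+ libraries and highest in P1 GFP- cells.

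At P1, GFP+ cells had higher Tsga14, Cep152, Cep97, Cep110 and Cep68 and lower Cep55, Cep170, Cep192, Ift27 and Ift80 than GFP- cells. All 48 members could be tested with edgeR's quasi-likelihood test over 18682 genes. At an adjusted p below 0.01, 5 members were higher, where 16.6% of all genes tested were, and 5 were lower, where 20.7% of all genes were, so the members' shares lay below the background in both directions. Their median log2 fold change was 0.03 against 0.01 over all genes, and 21 of 48 lay below 0. With library totals in place of TMM scaling, which lowered the median of all genes by 0.10 on the log2 scale, 3 members were higher and 7 lower.

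**Figure D3:**
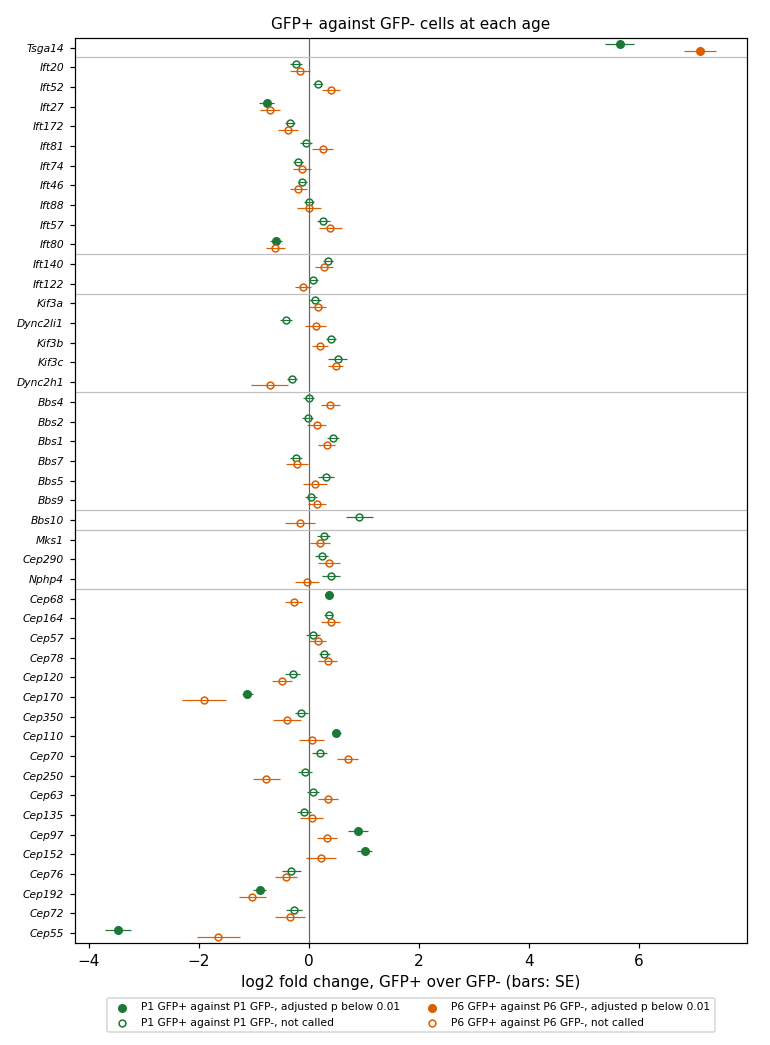
Log2 fold change of GFP+ over GFP- cells for 46 of the 48 members at P1 and P6, with bars of 1 SE, filled where the adjusted p is below 0.01. All but a few members lie within 1 log2 unit of 0 at both ages, with Tsga14 at 5.66 and 7.12 and Cep55 at -3.47 and -1.64.

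Tsga14 was 50.4-fold higher in P1 GFP+ than in P1 GFP- cells (log2 fold change 5.66 ± 0.26 SE, adjusted p = 2.91e-05). The other 4 members that were higher were genes with Cep symbols. Cep152, a scaffold that recruits the kinase Plk4 for centriole duplication, had 37.5 and 34.4 CPM in GFP+ and 20.9 and 17.4 CPM in GFP- cells, groups that did not overlap (log2 1.02 ± 0.14, adjusted p = 0.0017). Cep97, which caps centrioles and restrains cilium growth, had 55.3 and 55.2 CPM against 25.7 and 37.8 CPM (log2 0.90 ± 0.18, adjusted p = 0.00752). P1 GFP- replicate 2, the higher of those 2 libraries, also held 761 CPM of 9 neuron markers against 230 CPM in replicate 1, and its part in Cep97 was not tested. Cep110 (centriolin, a component of subdistal appendages and the midbody) and Cep68, a protein of the linker that holds centrosomes together, differed less, with log2 fold changes of 0.50 ± 0.08 (adjusted p = 0.00351) and 0.37 ± 0.08 (adjusted p = 0.00953). The call for Cep68 was lost with DESeq2 size factors (adjusted p = 0.0105), library totals (0.0335), thinned counts (0.0101), a fit of all 8 libraries (0.0331) and the replicate block (0.0161). That for Cep97 was lost with library totals (0.0122), and that for Cep110 with all 8 libraries (0.0525), as was that for Cep170 given next (0.0199).

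Cep55, which works at the midbody in the last step of cell division, had 0.676 and 0.643 CPM in P1 GFP+ cells and 7.97 and 7.91 CPM in P1 GFP- cells, an 11.1-fold difference (log2 -3.47 ± 0.23, adjusted p = 9.63e-05). Of 20 cell cycle markers, 19 were lower in GFP+ cells at P1, with summed levels of 154 and 157 CPM against 948 and 846 CPM. Cep55 thus went in the same direction as these markers, and the part of dividing cells in its difference was not tested. Cep170, of the subdistal appendages, had 64.8 and 58.8 CPM in GFP+ and 140.0 and 149 CPM in GFP- cells (log2 -1.12 ± 0.10, adjusted p = 0.000299). Cep192, which gathers centrosomal material and also recruits Plk4, had 20.2 and 20.0 CPM against 42.7 and 37.4 CPM (log2 -0.89 ± 0.12, adjusted p = 0.00137). Thus the 2 scaffolds of Plk4 differed in opposite directions, Cep152 higher and Cep192 lower in GFP+ cells.

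Among the transport genes, 2 of 10 IFT-B subunits were lower in P1 GFP+ cells, where 20.7% of all genes were. None was higher, where 16.6% of all genes were. The count of lower subunits lies near the share of all genes and is not read as a result about IFT-B. Ift27, a small GTPase that lets the BBSome leave the cilium, had 9.56 and 10.9 CPM against 18.6 and 18.7 CPM (log2 -0.76 ± 0.14, adjusted p = 0.00475), and Ift80 had 38.9 and 35.6 CPM against 62.7 and 58.6 CPM (log2 -0.60 ± 0.10, adjusted p = 0.00443). The call for Ift27 was lost with thinned counts (adjusted p = 0.0117). The other 8 IFT-B subunits, among them the core subunits Ift88, Ift81 and Ift74, did not pass the test, and the 10 together had a median log2 fold change of -0.15. Both IFT-A subunits among the members (Ift140, Ift122), the 5 motor subunits and the 6 BBSome subunits also had no call in either direction. Their log2 fold changes lay between -0.42 (Dync2li1) and 0.53 (Kif3c). Of 18 other IFT and BBS subunits outside the members, which include further IFT-A subunits, 0 were higher and 0 lower at P1. Of the transition zone genes, Nphp4, Mks1 and Cep290 had log2 fold changes of 0.41, 0.27 and 0.23 that did not pass the test (lowest adjusted p = 0.0788). Bbs10, a chaperonin-like protein needed to assemble the BBSome, had a log2 fold change of 0.92 ± 0.25 that did not pass (adjusted p = 0.0223). Ift57 and Bbs1, which share the X-box with Tsga14, had log2 fold changes of 0.27 and 0.44 at P1. In fits without 1 library, the lone library is assumed to vary like the other group. Calls among the members became fewer without either P1 GFP+ library and more without either P1 GFP- library. The shares of all genes called in these fits are not given, so this is not read as a result about the members. Tsga14, Cep55 and Cep170 passed in all 4 of these fits, and Cep152 in all but the one without P1 GFP+ replicate 1 (adjusted p = 0.0201).

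At P6, Tsga14 was the only member past the threshold, 139-fold higher in GFP+ than in GFP- cells (log2 7.12 ± 0.29, adjusted p = 0.000645). That is 1 member higher, where 7.72% of 18294 genes tested were, and 0 lower, where 5.19% were. At an unadjusted p below 0.05 there were 11 members, and DESeq2's Wald test called 4 at an adjusted p below 0.01. The shares of all genes under these criteria are not given, so the counts are not read as results about the members. The call for Tsga14 was lost without P6 GFP- replicate 2 (log2 7.06, adjusted p = 0.0124), a fit that left no call among the members. The members' median log2 fold change was 0.12 against -0.02 over all genes, and 20 of 48 lay below 0.

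Several members that were lower in GFP+ cells at P1 had P6 values of the same sign without a call. Cep170 had 16.0 and 39.7 CPM in P6 GFP+ and 102 and 106 CPM in P6 GFP- cells, groups that did not overlap although the GFP+ libraries differed widely (log2 -1.91 ± 0.40, adjusted p = 0.0179). Cep192 had 9.68 and 14.4 CPM against 22.4 and 26.5 CPM (log2 -1.02 ± 0.24, adjusted p = 0.0246). Ift27 had 10.7 and 10.98 CPM against 17.2 and 17.8 CPM (log2 -0.70 ± 0.18, adjusted p = 0.0345). Cep55 had 0.563 and 1.00 CPM against 2.53 and 2.48 CPM (log2 -1.64 ± 0.39, adjusted p = 0.026). In Cep170 and Cep192, with 9039 and 8096 exon bases, P6 GFP+ replicate 1 was the lower library, whereas in Ift27, with 1012 exon bases, the P6 GFP+ libraries lay close together.

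Leaving out either P6 GFP+ library raised the number of calls. Without replicate 1, 3 members were higher (Tsga14, Cep70, Kif3c) and 3 lower (Cep170, Cep192, Ift27), where 14.5% and 14.7% of all genes were. Without replicate 2, 4 were higher (Tsga14, Cep70, Ift52, Ift57) and 9 lower, where 17.9% and 22.6% of all genes were. The members called in both fits were Tsga14 and Cep70 (higher) and Cep170, Cep192 and Ift27 (lower). Both P6 GFP- libraries enter each fit, and the share of all genes called in both is not given. This list is therefore not read as a result about the members. Cep70, a protein that binds gamma-tubulin and microtubules at the centrosome, had 18.9 and 18.0 CPM in P6 GFP+ and 10.4 and 12.1 CPM in P6 GFP- cells (log2 0.71 ± 0.19, adjusted p = 0.0375 with all libraries). The centriole genes that were higher at P1 had smaller values at P6, with log2 fold changes of 0.22 for Cep152, 0.33 for Cep97, 0.05 for Cep110 and -0.27 for Cep68. None of these 4 passed the test of a difference between ages (adjusted p from 0.0523 for Cep68 to 0.343 for Cep110).

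**Figure D4:**
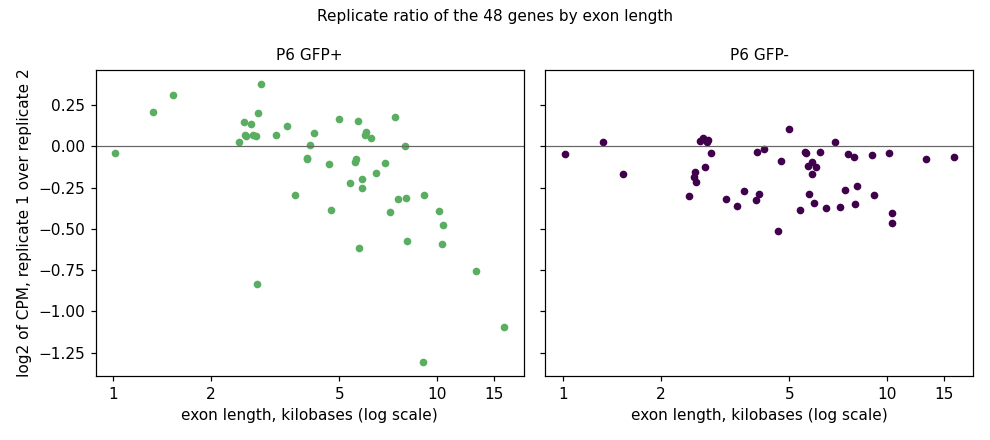
Log2 ratio of replicate 1 to replicate 2 for each of the 48 genes against exon length. In P6 GFP+ cells the ratio goes down with length (Spearman's rho -0.63 over 48 genes of the same pair of libraries, a description), and in the other groups rho lies between -0.22 and 0.21.

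From P1 to P6 most members had log2 fold changes below 0 in both fractions, of small size, and few or none passed the test. In GFP+ cells 37 of 48 members had a log2 fold change below 0, against 50.2% of all genes, with a median of -0.23 against 0.00. No member passed an adjusted p of 0.01 in edgeR's test, neither of the higher, where 2.86% of 17213 genes were called, nor of the lower, where 1.95% were. An unadjusted p below 0.05 was found for 20 members and DESeq2's Wald test called 6, counts for which no share of all genes is given. The P1 and P6 libraries did not overlap for 28 members that were lower at P6, where 35.1% of all genes were, and for 5 that were higher, where 34% were. In GFP- cells 41 members lay below 0, against 52.1% of all genes, with a median of -0.25 against -0.02. There 2 members fell, where 2.34% of 18920 genes did, and 0 rose, where 5.04% did. The GFP- libraries did not overlap for 35 members that were lower at P6, where 31.8% of all genes were, and for 4 that were higher, where 32.6% were. With library totals in place of TMM, which lowered the median of all genes by 0.09 in GFP+ and by 0.19 in GFP- cells, the members' medians were -0.31 and -0.44. Markers of other cell types moved with age in GFP+ cells as well. Their median log2 fold changes from P1 to P6 were 3.13 for 6 Schwann cell markers, 2.53 for 5 endothelial, 2.42 for 9 mesenchyme, fibrocyte and cartilage and 2.18 for 5 macrophage markers, of which only 2 in the mesenchyme list and 1 in the macrophage list passed the test, and in GFP- cells the Schwann cell median was 1.20. In GFP+ cells the Schwann cell markers summed to 361 to 420 CPM at P1 and 1114 to 2366 CPM at P6. Sox10 alone gave 275 and 286 CPM of the P1 sums and had a log2 fold change of 0.30 with age. It was higher in GFP+ than in GFP- cells at both ages (log2 1.31 and 1.82), whereas 4 of the 6 markers were lower at P1. The part of all these markers in the members' age values was not tested. The age comparisons use the same libraries as the comparisons of the fractions, so the values are not independent of those above.

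**Figure D5:**
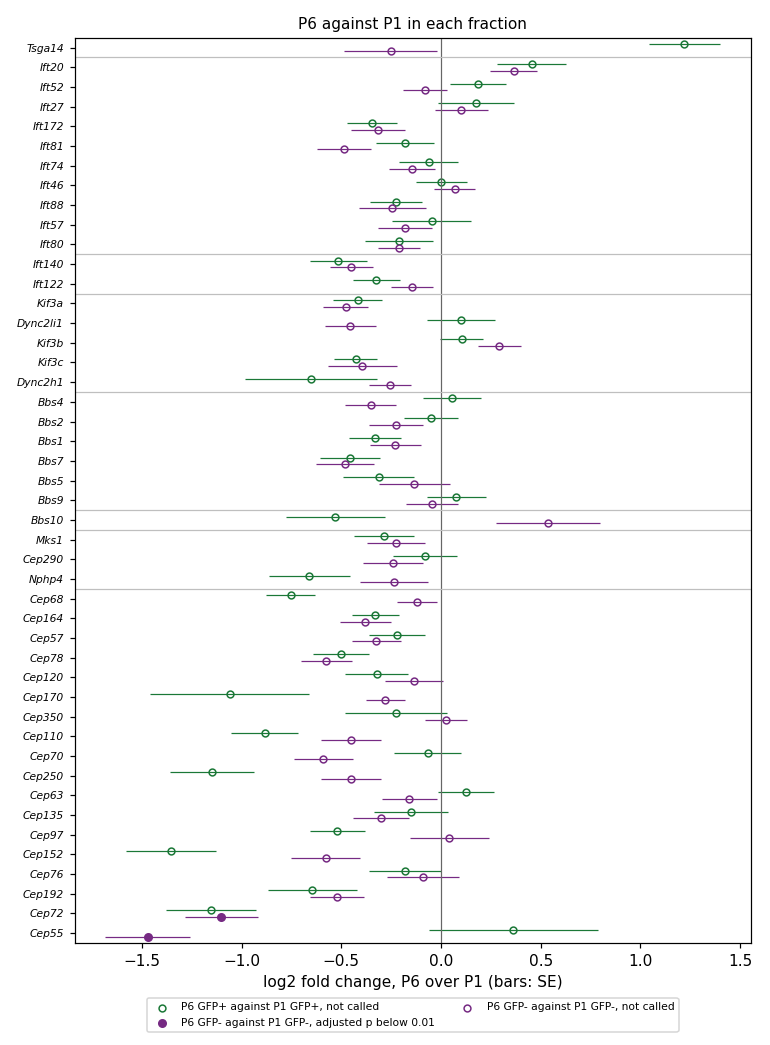
Log2 fold change from P1 to P6 for 46 of the 48 members in GFP+ and GFP- cells, with bars of 1 SE, filled where the adjusted p is below 0.01. Most points lie left of 0 in both fractions, only Cep55 and Cep72 in GFP- cells are filled, and Tsga14 in GFP+ cells lies alone at 1.22 on the right.

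The age values are given next by role, with no test between roles. The transition zone genes Cep290, Mks1 and Nphp4 had values of -0.08, -0.28 and -0.66 in GFP+ cells and of -0.24, -0.23 and -0.24 in GFP- cells, none of them called. Of the 18 other Cep genes, 16 lay below 0 in each fraction, with medians of -0.42 and -0.35. The 6 BBSome subunits were all below 0 in GFP- cells and 4 of 6 were in GFP+ cells, with medians of -0.23 and -0.18. IFT-B genes had medians of -0.05 in GFP+ cells (6 of 10 below 0) and -0.16 in GFP- cells (7 of 10 below 0), and Ift20 had values above 0 in both (0.45 and 0.37). Among the motors, Kif3a had -0.42 and -0.48, whereas its partner Kif3b had 0.10 and 0.29 in GFP+ and GFP- cells. None of these role groups was tested as a group.

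Cep55 and Cep72 fell from P1 to P6 in GFP- cells. Cep55 went from 7.97 and 7.91 CPM to 2.53 and 2.48 CPM (log2 -1.47 ± 0.21, adjusted p = 0.00517). Of 20 cell cycle markers, 17 fell between the same libraries, to summed levels of 315 and 283 CPM at P6. In GFP+ cells, where Cep55 was near 1 CPM or lower throughout, its log2 fold change was 0.36 ± 0.42 (adjusted p = 0.564) and none of the 20 cell cycle markers passed the test. Cep72, a protein of the satellites around the centrosome, went from 13.8 and 12.8 CPM to 4.93 and 5.95 CPM in GFP- cells (log2 -1.10 ± 0.18, adjusted p = 0.00841). In GFP+ cells it went from 10.5 and 9.96 CPM to 3.88 and 4.75 CPM, a change of like size (log2 -1.15 ± 0.23, adjusted p = 0.0265) that did not pass the threshold. Both calls in GFP- cells were lost without P6 GFP- replicate 1 (adjusted p = 0.0543 for Cep55 and 0.0892 for Cep72) and without replicate 2 (0.0511 and 0.0484), and with the replicate number as a block (0.0156 and 0.0229).

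In GFP+ cells the only member with an adjusted p below 0.05 that was higher at P6 was Tsga14, which was 2.33-fold higher than at P1 (log2 1.22 ± 0.18, adjusted p = 0.0131) and so short of the threshold of 0.01. It passed that threshold without P6 GFP+ replicate 1 (log2 1.10) and without replicate 2 (log2 1.33). In GFP- cells its value was -0.25 ± 0.23 (adjusted p = 0.478). Cep152 had the lowest value of the members in GFP+ cells, going from 37.5 and 34.4 CPM to 10.4 and 15.9 CPM (log2 -1.36 ± 0.23, adjusted p = 0.0181), and in GFP- cells it went to 10.1 and 12.4 CPM (log2 -0.58 ± 0.17, adjusted p = 0.0605). At P6 its libraries thus overlapped between the fractions, where at P1 they had not.

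Leaving out a P6 GFP+ library again changed the count. Without replicate 1, 1 member was higher and 12 lower at P6 in GFP+ cells, where 20.8% and 14.5% of all genes were, and without replicate 2, 2 were higher and 19 lower, where 22.5% and 20.7% were. Tsga14 was higher in both fits, and 11 members were lower in both, namely Cep68, Cep72, Cep78, Cep97, Cep110, Cep152, Cep170, Cep250, Ift140, Kif3c and Nphp4. Both P1 GFP+ libraries enter each fit, so the fits are not independent. The share of all genes called in both is not given, so the list is not read as a result about the members. The 13 members over 7000 exon bases had a median log2 fold change of -0.51 from P1 to P6 in GFP+ cells, against -0.20 for all protein-coding genes of that length, and the 18 members of 4000 or fewer bases had -0.06 against 0.14. Without P6 GFP+ replicate 1 these medians were -0.35 against -0.04 and -0.17 against 0.06. The 17 members of lengths in between had -0.32 against -0.04 with all libraries and -0.30 against -0.01 without that replicate. The members' median was the lower in each of these pairs, but lengths were not matched within a pair. Spearman's rho of this log2 fold change with exon length was -0.46 among members and -0.17 among protein-coding genes with all libraries. Without P6 GFP+ replicate 1 it was -0.23 and -0.03. The part of exon length in the members' age values was not tested. Without either P1 GFP+ library no member was called.

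Whether the difference between the fractions itself changed with age was tested as an interaction over all 8 libraries. At an adjusted p below 0.05, 2 members had a higher ratio of GFP+ to GFP- at P6 than at P1, where 3.6% of 19233 genes did, and 0 had a lower one, where 2.79% did. Tsga14 rose in GFP+ relative to GFP- cells (difference of log2 ratios 1.45 ± 0.33, adjusted p = 0.0421). Cep55 became less depleted (1.82 ± 0.43, adjusted p = 0.0468), and 7 of 20 cell cycle markers had a higher ratio at P6 likewise. Both calls lie near the threshold. With the replicate number as a block the adjusted p was 0.0639 for Tsga14 and 0.127 for Cep55. The call for Tsga14 was lost without P1 GFP+ replicate 1 (adjusted p = 0.179) or 2 (0.147), without P1 GFP- replicate 2 (0.0626) and without P6 GFP- replicate 1 (0.135) or 2 (0.177), and that for Cep55 in every such fit but the one without P6 GFP+ replicate 1 (adjusted p from 0.0886 to 0.18). The other 46 members had values between -1.09 (Bbs10, adjusted p = 0.123) and 0.53 (Dync2li1, adjusted p = 0.189).

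A wider list of 124 cilium and centrosome genes, 120 of them in the files, was read in the same fits. At P1, 25 of 113 tested were higher in GFP+ cells, where 16.6% of all genes were, and 15 were lower, where 20.7% of all genes were. Of 36 genes of motile cilia tested, 11 were higher, where 16.6% of all genes were, and 5 were lower, where 20.7% were. The higher ones were led by Tekt1, a tektin of the axoneme, with 28.7 and 30.5 CPM against 1.77 and 1.93 CPM (log2 4.10 ± 0.15), and Spag6, of the central pair, with 5.83 and 6.07 CPM against 0.607 and 1.20 CPM (log2 2.78 ± 0.35). Of 6 markers of multiciliated cells, 5 were higher in P1 GFP+ cells and 1 was lower. All 6 are also in the list of motile cilium genes, so they are the same genes counted again and no separate check. Their summed levels were 51.0 and 56.6 CPM against 6.89 and 8.60 CPM, with Tekt1 alone at 28.7 and 30.5 CPM in the P1 GFP+ libraries. Rttn, needed for centriole elongation, had 128 and 131 CPM against 20.5 and 22.2 CPM (log2 2.71 ± 0.09, adjusted p = 1.29e-05), while Hydin, another central pair gene, had a log2 fold change of 2.55. Lower in P1 GFP+ cells were the axonemal dynein genes Dnahc2 (log2 -3.27), Dnahc8 (-1.89) and Dnahc7b, the tubulin glutamylase Ttll6 (-2.10) and Plk4 (-1.81), the kinase of centriole duplication, with 6.24 and 5.30 CPM against 23.0 and 20.8 CPM. Other axonemal dynein genes were higher, namely Dnahc10, Dnahc11, Dnaic2, Dnali1 and Dnalc1, so these genes had calls in both directions at P1. The calls for Ttll6 and Dnahc8 were lost without P1 GFP+ replicate 1 (adjusted p = 0.0107 and 0.0144), and that for Ttll6 also without replicate 2 (0.0191).

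None of the 13 enzymes that add glutamate to tubulin or remove it was higher in GFP+ cells at P1, where 16.6% of all genes were. None of the 12 tested at P6 was, where 7.72% of all genes were. At P1, 2 were lower (Ttll6 and Agtpbp1), where 20.7% of all genes were. Of the 6 Rfx genes, Rfx2 was lower in GFP+ cells at P1 (log2 -1.65 ± 0.22, adjusted p = 0.00152) and at P6 (-1.90 ± 0.28, adjusted p = 0.00658), and none was higher. At P6, 5 of 108 genes were higher (Tekt1 4.68, Spag6 3.42, Rsph1 2.95, Rttn 1.99 and Ninl), where 7.72% of all genes were. Another 3 were lower, where 5.19% were (Dnahc1 -2.09, Rfx2 -1.90 and the IFT-A subunit Ttc21b -1.47). Fits without 1 library, either P6 GFP+ library among them, gave 4.42 to 5.03 for Tekt1 and 3.06 to 3.89 for Spag6. They gave 2.33 to 3.43 for Rsph1 and 1.90 to 2.13 for Rttn. For Dnahc1 the range was -2.44 to -1.80, for Rfx2 -2.16 to -1.65 and for Ttc21b -1.65 to -1.26. Without P6 GFP- replicate 2, none of the 7 genes with values here passed, at adjusted p from 0.0139 (Tekt1) to 0.0632 (Rfx2), and without replicate 1 only Tekt1 did (0.0179 to 0.052 for the others).

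With age, 6 of 109 of these genes fell in GFP+ cells, where 1.95% of all genes did, and none rose, where 2.86% did. Dnahc1 went from 12.02 and 13.1 CPM to 1.35 and 2.11 CPM (log2 -2.75 ± 0.29, adjusted p = 0.00594), and Ccdc40, needed to assemble the regulatory complex of motile axonemes, from 24.7 and 24.5 CPM to 4.22 and 4.32 CPM (-2.44 ± 0.18, adjusted p = 0.00287). Armc4 (-3.88) and Dnahc6 (-3.40), also genes of motile cilia, fell to below 1 CPM. Fits without 1 library, either P6 GFP+ library among them, gave -3.09 to -2.51 for Dnahc1 and -2.47 to -2.40 for Ccdc40. They gave -4.04 to -3.65 for Armc4 and -3.96 to -3.08 for Dnahc6. These 4 calls were lost without P1 GFP+ replicate 2 (adjusted p from 0.0167 to 0.0509). In GFP- cells 4 of 111 fell, Dnahc6 (-2.43), Stil (-1.88), Ccdc40 (-1.61) and Plk4 (-0.89), where 2.34% of all genes did, and none rose, where 5.04% did. Stil and Plk4 act with Cep152 at the start of centriole duplication. These 4 calls were lost without P6 GFP- replicate 1 (adjusted p from 0.023 to 0.0956) and without replicate 2 (0.0186 to 0.0739). Of 115 genes tested for the interaction, 2 had a higher ratio at P6 (Ccno, Dnaic1), where 3.6% of all genes did, and 5 a lower one (Dnahc1, Armc4, Ttc21b, Tctn1, Tulp3), where 2.79% did.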

How the data were processed

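RNA from 8 libraries of sorted cochlear cells was sequenced by the authors (TruSeq v2, paired reads of 100 bases). The deposited values are counts of reads per Ensembl gene, made per the labels with TopHat 1.4.0 on mm9 and HTSeq. The methods of the study give another TopHat release, and the counting mode is not given in the sources used here. Lines that name no gene (23.8% to 35.3% of each file) were left out. Counts were tested in edgeR 4.0.16 (R 4.3.3) with TMM scaling, filterByExpr (minimum count 10, minimum total 15) and the quasi-likelihood test, on the 4 libraries of each comparison or, for the interaction, on all 8, with Benjamini-Hochberg adjustment over all genes tested. Calls used an adjusted p below 0.01, and below 0.05 for the interaction. DESeq2 1.42.0 was an alternative. CPM were taken over gene counts, and replicate ratios used a pseudocount of 0.1 CPM over genes of at least 5 CPM. Scripts were tested on simulated data.

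Members and gene lists were chosen with earlier results of these data known. Named were Tsga14, up to 5 members per direction and comparison by size of change among those called with at least 50 normalized counts, members called for the interaction, and up to 4 other cilium genes per direction. Members under other calls or in role groups are named as descriptions, chosen after their values were seen, as are other cilium genes listed by a call alone. Single values of 2 members are not reported here.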

Additional observations from a re-analysis of the deposited data

Results flagged for a closer look

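Among the 48 members and the wider list, 9 genes had a ratio of GFP+ to GFP- cells that differed between P1 and P6 in edgeR's interaction test at an adjusted p below 0.05. A higher ratio at P6 was called for 2 of 48 members and 2 of 115 other genes, where 3.6% of 19233 genes had one. A lower ratio was called for 0 members and 5 of the other genes, where 2.79% of all genes had one. For Cep55 the log2 ratio was -3.47 at P1 and -1.64 at P6, a difference of 1.82 (adjusted p = 0.0468). For Tsga14 it was 5.66 and 7.12, a difference of 1.45 (adjusted p = 0.0421). Outside the 48, Ccno went from -2.29 to 0.04 (a difference of 2.32, adjusted p = 0.0465) and Dnaic1 from -0.93 to 1.43 (2.34, adjusted p = 0.017). The other 5 had a lower ratio at P6, with Armc4 going from 0.51 to -2.23 (-2.76, adjusted p = 0.0234), Dnahc1 from 0.16 to -2.09 (-2.26, adjusted p = 0.00711), Tctn1 from 2.10 to 0.76 (-1.35, adjusted p = 0.0183), Ttc21b from -0.40 to -1.47 (-1.08, adjusted p = 0.0292) and Tulp3 from 0.52 to -0.17 (-0.70, adjusted p = 0.0428). The call for Dnahc1 stayed in each fit without 1 library and with the replicate block. Those for Armc4 and Ttc21b were lost without either P1 GFP+, P1 GFP- or P6 GFP- library (adjusted p from 0.0582 to 0.11 and from 0.0767 to 0.148) and with the replicate block (0.0681 and 0.0742), and that for Ttc21b also with library totals (0.0519). Those for Ccno, Dnaic1 and Tulp3 were lost with the replicate block (0.1, 0.0684 and 0.0886), that for Ccno also with thinned counts (0.125) and that for Tulp3 also with library totals (0.0925) and with no filter (0.0527). Without 1 library, Ccno, Dnaic1, Tctn1 and Tulp3 each lost their call in 4 or more of 8 fits, with adjusted p up to 0.232, 0.103, 0.0912 and 0.227. With 2 libraries a group, no single library could be tested as an outlier.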

How the results depend on the processing

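Across alternatives, 135 values of named genes kept their direction and their side of the threshold when 1 library was left out, 92 lost their call, 3 gained one and 2 changed sign; under the other alternatives 340 kept both, 37 lost and 6 gained a call. The signs that changed were those of Cep55 with age in GFP+ cells without P6 GFP+ replicate 2 (-0.11, up to 0.66 without the others) and of Tsga14 with age in GFP- cells without P1 GFP- replicate 2 (0.12, down to -0.57 without the others); neither was called. The cause was not tested.

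Counts of members called moved more. Apart from the fits without a P6 GFP+ library above, the shares of all genes called under these alternatives are not given. The counts therefore describe the fits and are not read as results about the members. At P1 the 10 became 16 with no filter on low counts and 19 at an adjusted p below 0.05, with 3 to 21 when 1 library was left out. At P6 the 1 became 4 with DESeq2's test, 7 in a fit of all 8 libraries, 5 with no filter, 8 at 0.05 and 0 to 13 without 1 library. With age in GFP+ cells the 0 became 6 with DESeq2, 6 with all 8 libraries, 7 with no filter, 7 at 0.05 and 0 to 21 without 1 library. With age in GFP- cells the 2 became 1 with a filter of 1 CPM, 6 with DESeq2, 0 with all 8 libraries, 1 with counts thinned to the smallest library, 8 at 0.05 and 0 to 5 without 1 library. For the interaction the 2 became 4 with no filter, 1 with thinned counts, 0 at 0.01 and 0 to 7 without 1 library. The members' median log2 fold change moved past the spread between replicates with library totals in place of TMM, to -0.077 at P1, -0.31 with age in GFP+ cells, -0.44 with age in GFP- cells and 0.11 for the interaction, where that scaling shifted the median of all genes by 0.12; at P1 it lay between -0.024 and 0.077 without 1 library.

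Libraries of different groups share replicate numbers, but nothing says that a number marks shared animals, and with 2 numbers the correlation of deviations across genes was 0.02, 0.09, -0.08 and -0.28 in the 4 comparisons. With the number as a replicate block, 9 members were called at P1, 2 at P6, 1 with age in GFP+ cells, 0 with age in GFP- cells and 0 for the interaction. The crossed pairing of the GFP- libraries, chosen after seeing the data, gave 5. With 2 libraries a group, small differences in members of few CPM are not detectable at this depth.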
